A study of Mus musculus with 10 samples.

Results

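The simple epithelial keratins Krt7, Krt8, Krt18, Krt19, Krt20 and Krt23 were examined together with Epcam and Cdh1, which served as measures of epithelial content. These 8 genes were drawn from the 19096 genes that carried a named probe on the array, by the gene to which each probe's accession belonged, and 10 probes measured them. Krt7 and Krt8 each had a second probe, and the probe with the higher mean over all 10 arrays stood for the gene.

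Expression had been measured on 10 Agilent single-colour microarrays, with RNA of whole lung from 5 wild-type (WT) mice and of 5 whole lung tumours classed as squamous cell carcinoma (SCC). The mice were aged 13 months, and the labels give their strain as B6.129, which the methods write in the notation of a mixed background. The WT mice were Lkb1 f/f, so both groups carried the floxed Lkb1 alleles, and the SCC mice carried the CCSPiCre allele as well (CCSPiCreLkb1f/f). CCSP, the secretory protein of club cells, directs this Cre to airway epithelium, so whole-tumour RNA also came from cells that the Cre does not target. Tumour and lung also differed as tissues, so a difference between the groups was one of SCC tissue against whole lung, and the effects of genotype and of tissue cannot be told apart. Lkb1 itself (Stk11) was not analysed here.

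Keratins are the intermediate filament proteins of epithelial cells, and each filament is built from pairs of an acidic type I and a basic type II chain. Simple epithelia such as those of the airway, the alveoli and the gut typically pair Krt8 and Krt7, which are type II, with Krt18 and Krt19, which are type I. Squamous epithelia build their basal layer from Krt5 and Krt14 and their stressed or upper layers from other pairs. Krt20 is a type I keratin best known from gut epithelium, urothelial umbrella cells and Merkel cells, and Krt23 is a type I keratin of less settled function. Epcam is a surface adhesion protein of simple epithelia, and Cdh1 encodes E-cadherin, the adhesion protein of adherens junctions.

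Values are log2 of the processed spot intensity after quantile normalization between arrays, so a difference of 1 is 2-fold. A probe was called when limma's adjusted p (Benjamini-Hochberg over 30374 tested probes) was below 0.05 and the difference was at least 2-fold. On 9 arrays, 71.0% to 74.4% of probes were well above background, and on SCC replicate 5 90.2% were. SCC replicate 2 stood closer to WT lung than the other tumours did, with correlations across probes of 0.94 to 0.946 with the WT arrays, against at most 0.905 for the other SCC arrays. All 7 measured squamous and basal markers were called higher in SCC, where 9.92% of all tested probes were. Of the 7, 3 (Krt6a, Dsg3 and Pkp1) were not well above background on any WT array and so could be tested only through SCC. Sums of linear signal are in units of 1000 intensity units here. The sum of the 7 was 0.292 to 0.364 in WT, 83.5 on SCC replicate 2 and 518 to 634 on the other SCC arrays. Alveolar type 2 markers were bright in both tissues, with sums of 798 to 844 in WT lung and 630 to 793 in SCC. Sftpc, the brightest of them, had the same value of 18.80 on all 5 WT arrays and on SCC replicates 1 and 2. Quantile normalization gives equal ranks equal values, so these sums can hide a difference in Sftpc.

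In the reference annotation (GRCm38.p6), Krt8 (chr15:101996711-102004342) and Krt18 (chr15:102028216-102032026) lie side by side and are transcribed away from each other, with Krt7 in the same cluster (chr15:101412403-101427806). Krt20 (chr11:99428385-99438153), Krt23 (chr11:99477973-99493120) and Krt19 (chr11:100140810-100145926) lie in the type I cluster, and Epcam is at chr17:87635979-87651127 and Cdh1 at chr8:106603350-106670247. The promoters of the Krt8 and Krt18 pair are shown because their 2 genes differed in response, and those of Krt20 and Krt23 because these keratins rose most. Each RefSeq sequence runs 5' to 3' from 250 bases before to 20 bases after the annotated start, and capitals mark the motifs searched for on both strands.
Krt8 promoter, chr15:102004323-102004592, minus strand: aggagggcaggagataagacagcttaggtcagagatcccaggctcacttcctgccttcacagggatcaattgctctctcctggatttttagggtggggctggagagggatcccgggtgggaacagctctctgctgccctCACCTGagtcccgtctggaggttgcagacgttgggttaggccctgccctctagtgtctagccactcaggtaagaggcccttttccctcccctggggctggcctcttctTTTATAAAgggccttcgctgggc
Krt18 promoter, chr15:102027966-102028235, plus strand: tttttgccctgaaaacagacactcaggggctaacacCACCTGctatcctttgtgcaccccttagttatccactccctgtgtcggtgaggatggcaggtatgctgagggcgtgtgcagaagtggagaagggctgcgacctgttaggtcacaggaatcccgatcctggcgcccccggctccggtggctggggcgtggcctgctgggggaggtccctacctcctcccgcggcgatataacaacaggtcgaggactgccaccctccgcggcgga
Krt20 promoter, chr11:99438134-99438403, minus strand: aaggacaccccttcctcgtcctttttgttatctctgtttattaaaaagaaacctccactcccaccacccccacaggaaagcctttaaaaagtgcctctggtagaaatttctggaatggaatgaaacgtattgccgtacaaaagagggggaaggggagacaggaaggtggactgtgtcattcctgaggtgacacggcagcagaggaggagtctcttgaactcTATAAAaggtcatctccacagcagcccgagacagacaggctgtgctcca
Krt23 promoter, chr11:99493101-99493370, minus strand: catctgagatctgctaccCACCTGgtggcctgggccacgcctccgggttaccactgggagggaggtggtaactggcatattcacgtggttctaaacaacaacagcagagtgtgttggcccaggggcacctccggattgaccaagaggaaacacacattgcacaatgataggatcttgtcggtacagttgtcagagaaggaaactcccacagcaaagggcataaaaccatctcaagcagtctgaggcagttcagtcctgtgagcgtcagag
In capitals, TATAAA is the core TATA box and CAGGTG is an E-box of the kind that zinc-finger repressors of Cdh1 bind, read on the other strand as CACCTG. In windows of 300 bases, TATAAA was found in Krt8, where the hits on both strands overlap, and in Krt20, against 13.6% of 32851 promoters. CAGGTG was found in 5 of the 6 members that matched the promoter table (Krt7, Krt8, Krt18, Krt23 and Epcam), against 20.2% of all promoters. The GC box GGGCGG was found in Krt7 and Epcam, against 35.7% of all. Neither the AP-1 motif TGANTCA (7.81% of all) nor the grainyhead motif AACCGGTT (0.146% of all) had a match in these 6 windows. These matches describe letters only and no binding was measured.

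The question was whether the keratins of simple epithelia, which normal lung already makes, changed in the squamous tumours. All 8 members passed the filter on dim probes, and 7 of them were well above background on every array, the exception being Krt20. Each of the 8 had a higher mean in SCC. By limma, 5 were called higher (Krt18, Krt19, Krt20, Krt23 and Epcam) and none lower, where 9.92% of all tested probes were called higher, 13.0% lower and 22.9% in either direction. Krt20 passed the filter on dim probes only through SCC, which set its direction, and of the other 7 members 4 were called. Krt7 and Cdh1 passed the adjusted p without reaching 2-fold, so 7 members passed on p alone, where 22.4% of all tested probes did so in the higher direction. The SCC and WT values did not overlap for 6 members, against 37.4% of all tested probes. The median difference was 1.07 over the members and -0.09 over all tested probes. In whole tissue, a change in the number of epithelial cells and a change in RNA per cell cannot be told apart.

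**Figure D1:**
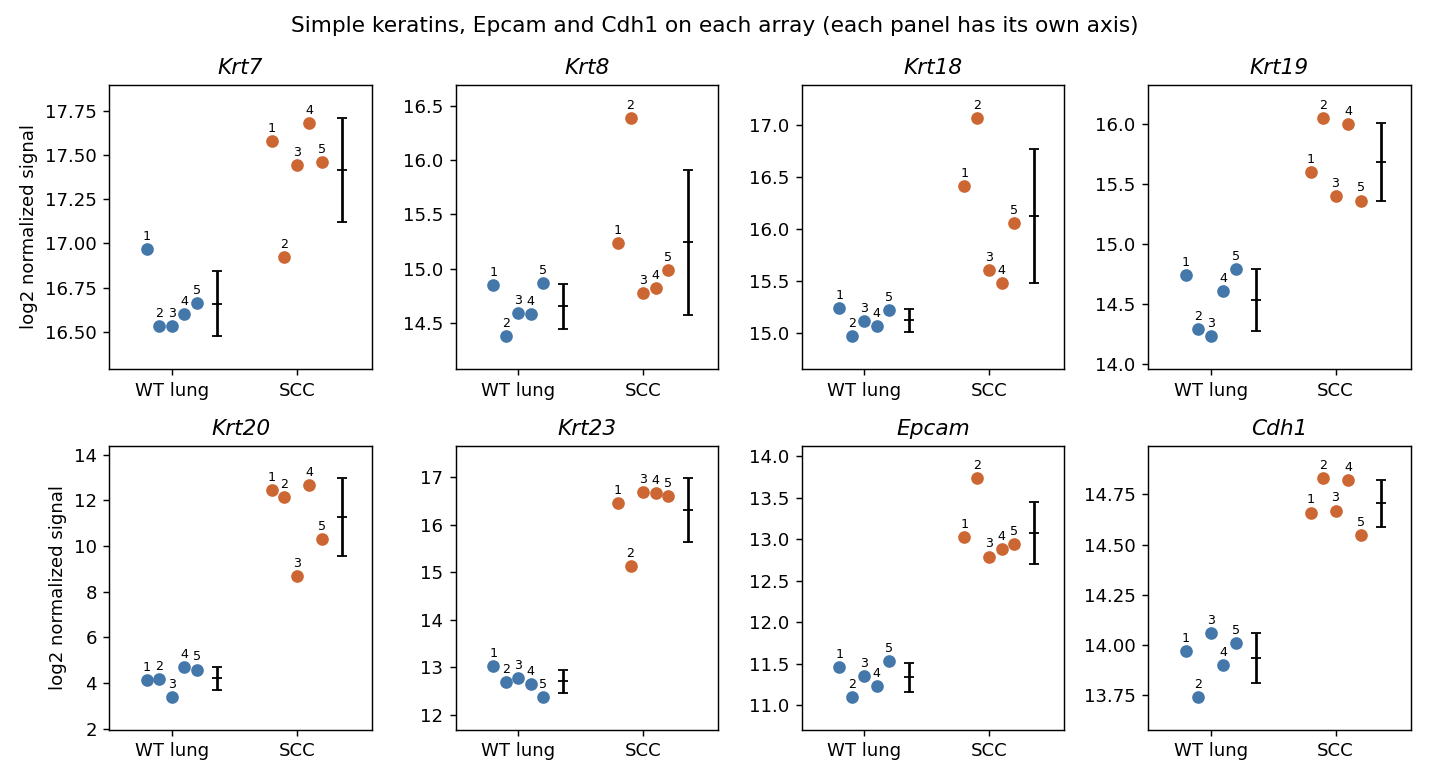
Log2 normalized signal of the 8 members on each array, with WT lung at left and SCC at right of each panel. Points are arrays numbered by replicate, bars are the mean and SD of 5 arrays, and each panel has its own axis. WT and SCC overlap for Krt7 and Krt8 only, and SCC replicate 2 is the highest SCC array for Krt8, Krt18, Krt19, Epcam and Cdh1 and the lowest for Krt7 and Krt23.

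Krt8 and Krt18 encode the founding filament pair of simple epithelia. Krt8 (probe A_51_P242400) was at 14.85, 14.38, 14.59, 14.58 and 14.87 on WT arrays 1 to 5. It was at 15.24, 16.39, 14.78, 14.82 and 14.99 on SCC arrays 1 to 5. SCC replicate 2 alone was far above the WT range, SCC replicates 3 and 4 lay within it, and the groups overlapped. The difference was 0.59 (SE 0.29, 95% confidence interval -0.05 to 1.24) and did not pass, with a limma adjusted p of 0.115. The exact two-sided permutation p for that probe alone was 0.0476. The second Krt8 probe differed by 0.54 (SE 0.31, limma adjusted p 0.176). Without SCC replicate 2 the difference was 0.31 (limma adjusted p 0.0833), and with arrays scaled to their 75th percentile in place of quantile normalization it was 0.72 (0.0312).

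Krt18, the type I partner of Krt8, was at 15.24, 14.97, 15.12, 15.07 and 15.22 on WT arrays 1 to 5. On SCC arrays 1 to 5 it was at 16.41, 17.07, 15.61, 15.48 and 16.06. Every SCC array exceeded every WT array, and SCC replicates 2 and 1 were the highest. Krt18 rose by 1.00 (SE 0.27, limma adjusted p 0.0125), at the edge of the 2-fold limit. The adjusted p stayed below 0.05 without any single array, but the difference fell below 2-fold without WT replicate 2 (0.96), WT replicate 4 (0.99), SCC replicate 1 (0.93) or SCC replicate 2 (0.77), and with normexp (0.99).

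Within each array, the Krt8 value minus the Krt18 value was -0.39, -0.59, -0.53, -0.50 and -0.35 on WT arrays 1 to 5. On SCC arrays 1 to 5 it was -1.17, -0.68, -0.82, -0.67 and -1.07. The groups did not overlap, so Krt8 lay lower against its partner in all 5 tumours than in any WT lung, although the sign of a single value depends on the probes and says nothing of relative amounts. The change was -0.41 log2 units, with an exact two-sided permutation p of 0.00794, the smallest that 5 against 5 arrays allow. It ranged from -0.46 to -0.34 when single arrays were left out and was -0.46 with the second Krt8 probe. Slide was not fitted as a block for this difference.

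Krt7, the other type II keratin of simple epithelia, was at 16.97, 16.53, 16.53, 16.60 and 16.66 on WT arrays 1 to 5 (probe A_51_P312348). On SCC arrays 1 to 5 it was at 17.58, 16.92, 17.44, 17.68 and 17.46. Only SCC replicate 2 fell below the highest WT array, and the other 4 SCC arrays were above all WT arrays. Krt7 rose by 0.76 (SE 0.15, limma adjusted p 0.00287), short of 2-fold. Its second probe (A_52_P410685) rose by 1.17 (SE 0.23, limma adjusted p 0.00243) with no overlap, so the probe decides whether Krt7 was called, as does the scaling, since the first probe rose by 1.01 (adjusted p 0.00302) with arrays scaled to their 75th percentile. On that probe SCC replicate 2 was at 13.51 and the other SCC arrays at 14.50 to 14.78.

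Krt19, the smallest keratin, lacking most of the tail domain of the family, was at 14.74, 14.29, 14.23, 14.61 and 14.79 on WT arrays 1 to 5. On SCC arrays 1 to 5 it was at 15.60, 16.05, 15.40, 16.00 and 15.36. The groups did not overlap, and the SCC arrays spanned 0.69 log2 units against 1.59 for Krt18. Krt19 rose by 1.15 (SE 0.18, limma adjusted p 0.000659), or 2.21-fold.

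Krt23 was the member with the smallest adjusted p. It was at 13.04, 12.69, 12.77, 12.65 and 12.38 on WT arrays 1 to 5. On SCC arrays 1 to 5 it was at 16.45, 15.13, 16.70, 16.67 and 16.60. SCC replicates 1, 3, 4 and 5 lay between 16.45 and 16.70, and SCC replicate 2 was lower, yet above every WT array. Krt23 rose by 3.61 (SE 0.29, limma adjusted p 1.62e-05), or 12.2-fold.

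Krt20 had the largest fitted difference of the members. It was at 4.14, 4.19, 3.39, 4.69 and 4.59 on WT arrays 1 to 5, where only WT replicate 4 was well above background. On SCC arrays 1 to 5 it was at 12.47, 12.14, 8.71, 12.67 and 10.33, well above background on all 5. The groups were far apart, and the SCC arrays themselves spanned 3.96 log2 units, with SCC replicate 3 the lowest. Krt20 was called higher, with a fitted difference of 7.07 (SE 0.72, limma adjusted p 5.35e-05). Since 4 WT arrays were not well above background, the size depends on how dim signal is treated, and with normexp background correction the difference was 4.34 (SE 0.59, limma adjusted p 0.000147).

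Epcam and Cdh1 both rose, by different amounts. Epcam was at 11.46, 11.10, 11.35, 11.23 and 11.53 on WT arrays 1 to 5 and at 13.02, 13.73, 12.79, 12.88 and 12.94 on SCC arrays 1 to 5. Cdh1 was at 13.97, 13.74, 14.06, 13.90 and 14.01 on the WT arrays and at 14.66, 14.83, 14.67, 14.82 and 14.55 on the SCC arrays. Neither gene overlapped between groups, and SCC replicate 2 was the highest array for both. Epcam rose by 1.74 (SE 0.18, limma adjusted p 5.61e-05) and Cdh1 by 0.77 (SE 0.10, limma adjusted p 0.000156), which is less than 2-fold. The Epcam value minus the Cdh1 value changed by 0.97 between WT and SCC, with no overlap.

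To set the keratins against epithelial content, the mean of the Epcam and Cdh1 values on an array was subtracted from every probe on it. This mean was 12.42 to 12.77 on the WT arrays and 13.73 to 14.28 on the SCC arrays, a difference of 1.26. After subtraction Krt20 (5.81, SE 0.67, limma adjusted p 1.47e-05) and Krt23 (2.35, SE 0.38, 0.000164) were called higher, where 2.92% of all tested probes were, and of these only Krt23 passed the filter on dim probes through both groups. With this mean of both genes, none of the 6 was called lower by 2-fold, where 67.7% of all tested probes were. With normexp background correction the Krt20 value was 3.09 (SE 0.52), its WT level being mostly not above background. Krt8 was lower by less than 2-fold (-0.66, SE 0.21, limma adjusted p 0.0111). Krt7 (-0.50, 0.0596), Krt18 (-0.25, 0.279) and Krt19 (-0.11, 0.514) did not pass.

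Relative to content, Krt23 was at 0.32, 0.27, 0.07, 0.09 and -0.39 on WT arrays 1 to 5 and at 2.61, 0.85, 2.97, 2.82 and 2.85 on SCC arrays 1 to 5. Krt8 was at 1.89 to 2.13 on the WT arrays and at 1.40, 2.11, 1.05, 0.96 and 1.25 on SCC arrays 1 to 5. Krt23 therefore stayed separate between groups on all arrays, while for Krt8 only SCC replicate 2 reached the WT range. Which marker stood for content mattered for the small differences. With Epcam alone, Krt8 (-1.15, limma adjusted p 6.35e-05) was called lower by 2-fold, and Krt7 (-0.98), Krt18 (-0.74) and Krt19 (-0.59) passed as lower short of 2-fold. With Cdh1 alone, Krt18 (0.23, adjusted p 0.445) and Krt19 (0.38, adjusted p 0.0489) changed sign, and Krt8 (-0.18, adjusted p 0.55) did not pass.

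**Figure D2:**
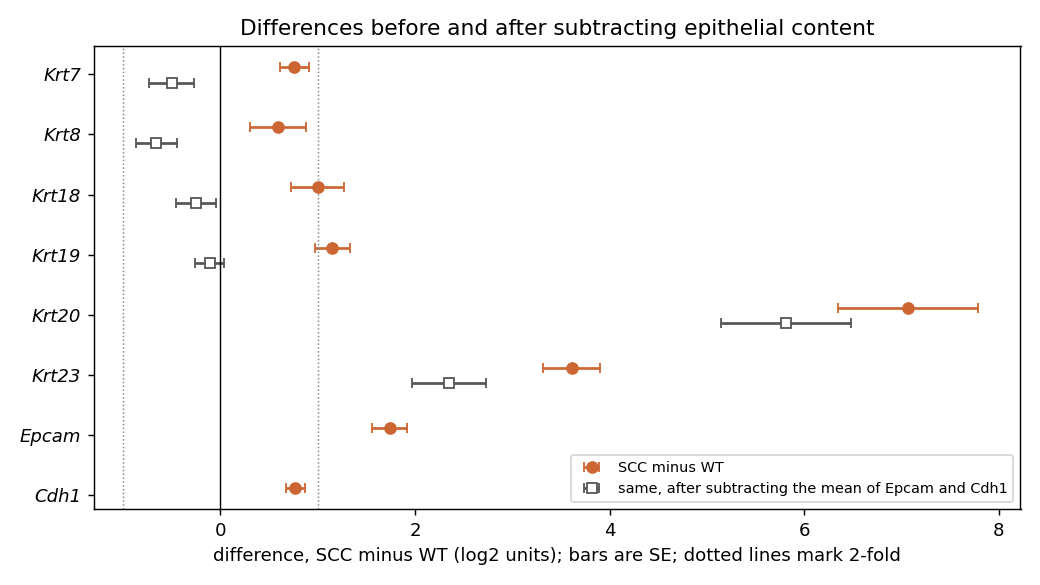
Difference between SCC and WT (log2 units) for each member, as measured (filled circles) and after subtracting the mean of Epcam and Cdh1 on the same array (open squares, keratins only), with SE from limma as bars and dotted lines at 2-fold. Krt20 and Krt23 stay above 2-fold after subtraction, at 5.81 (3.09 with normexp) and 2.35, while Krt7, Krt8, Krt18 and Krt19 move to between -0.66 and -0.11.

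The tumours were not alike in these genes. Relative to the WT mean, SCC replicate 2 was higher by 1.74 for Krt8, 1.95 for Krt18, 1.52 for Krt19 and 2.39 for Epcam, and by 0.26 for Krt7 and 2.42 for Krt23. Compared with the mean of the other SCC arrays it was higher by 1.43 for Krt8 and 1.18 for Krt18, and differed by -0.62 for Krt7 and -1.48 for Krt23. SCC replicates 3 and 4 had the smallest Krt8 (0.13 and 0.16) and Krt18 (0.48 and 0.36) differences from WT. SCC replicate 2 also had the lowest squamous marker sum of the SCC arrays. Its neutrophil marker sum was 17.0, where the other SCC arrays had 108.5 to 120.3 and the WT arrays 27.3 to 47.9. Its sums were the highest of the SCC arrays for alveolar type 2 (793), club (1124), endothelial (108) and fibroblast markers (116). The other SCC arrays reached at most 718, 761, 65.3 and 110. For alveolar type 1, ciliated, mesothelial and neuroendocrine markers it lay within the range of the others. Whether the composition of that tumour bears on its keratin values was not tested. Without SCC replicate 2, 4 members were called, Krt18 being the one lost, and Krt23 rose by 3.90.

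**Figure D3:**
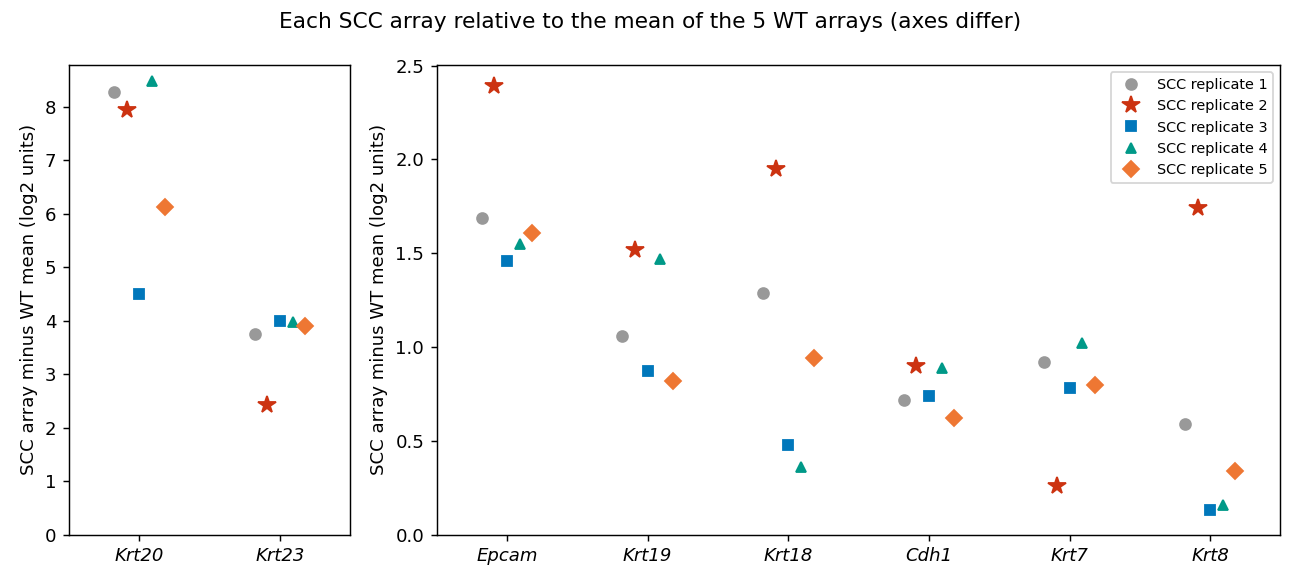
Each SCC array minus the mean of the 5 WT arrays (log2 units) for the 8 members, with 1 symbol per SCC replicate and a separate axis for Krt20 and Krt23. SCC replicate 2 (star) lies above the other tumours for Krt8 (1.74), Krt18 (1.95) and Epcam (2.39) and below them for Krt7 (0.26) and Krt23 (2.42).

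The arrays lay on 3 slides, and only slide 2 held both groups (WT replicate 5 and SCC replicates 1 to 3). With slide as a fixed block in limma, Krt20 (6.52, adjusted p 0.0279), Krt23 (3.71, 0.00809) and Epcam (1.65, 0.0211) were called. Krt18 (1.14, 0.159), Krt19 (0.89, 0.134), Krt7 (0.65, 0.181), Krt8 (0.60, 0.485) and Cdh1 (0.71, 0.0506) kept their direction and did not pass. Slide 1 held only WT arrays and slide 3 only SCC arrays, so the block fit takes its differences from slide 2. It uses the other slides only for the spread. Within slide 2 alone the differences are therefore the same by construction, and the calls of the block fit also rest on WT replicate 5. With 1 WT array there, the WT arm had no spread of its own and limma called none of the 30374 probes, so no call is read from that slide. Relative to content, with slide as a fixed block, Krt20 (5.34, 0.00982) and Krt23 (2.53, 0.0125) were called higher, and Krt8 (-0.58, 0.205) no longer passed.

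The profiles most like each keratin were sought among 14109 genes well above background on all 10 arrays, by the root mean square difference between log2 profiles centred on their WT means. Krt8 lay nearest to Gal3st1 (0.11), Tcn2 (0.16) and Nupr1 (0.19), and Krt18 to Ifitm7 (0.20), Man1a (0.21) and Sec23b (0.23). Krt7 lay nearest to Ccdc50 (0.07), Ywhaz (0.08) and Cstf2 (0.10), and Krt19 to Ildr1 (0.14), Ptgr1 (0.18) and Tgif1 (0.20). Krt23 lay nearest to Car13 (0.13), Mboat1 (0.18) and Mal (0.20). Krt20 was above background on only 1 WT array, so genes as dim as it in WT lung were not among those compared. Within that limit its nearest profiles were Muc5b (1.09) and Scgb3a1 (1.23), which encode an airway mucin and a secretoglobin, and Dmbt1 (1.29). Among the members themselves, the closest pairs were Krt7 with Cdh1 (0.25) and Krt8 with Krt18 (0.33), and Krt20 lay at 2.80 or more from every other member.

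The rest of the keratin family moved over a wider range. Of 37 other keratin genes with a probe, 24 were tested, and 17 were called higher, 2 lower and 5 not called, where 9.92% of all tested probes were called higher and 13.0% lower. Of these 24, 9 passed the filter on dim probes only through SCC, so their direction was set by the filter, and 1 (Krt222) passed only through WT. Of the 14 that were well above background on all 10 arrays, 10 were called higher, 1 lower and 3 not called. Krt5, the type II chain of basal cells, rose by 11.35 (SE 0.41, limma adjusted p 2.14e-07). Krt6a, a type II chain of stressed squamous epithelium, was not well above background on any WT array and was called higher in SCC (limma adjusted p 2.18e-05). Against a floor for dim WT signal it was 1498-fold higher, or 3135-fold without SCC replicate 2, and these sizes depend on the floor. Krt79 fell by 3.56 (SE 0.19, limma adjusted p 1.74e-06) and Krt222, an unusual type I family member, was called lower (adjusted p 0.00707), being well above background on all 5 WT arrays and on 1 SCC array. Among the simple keratins, Krt23 differed by 3.61 and Krt7, Krt8, Krt18 and Krt19 by 0.59 to 1.15.

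**Figure D4:**
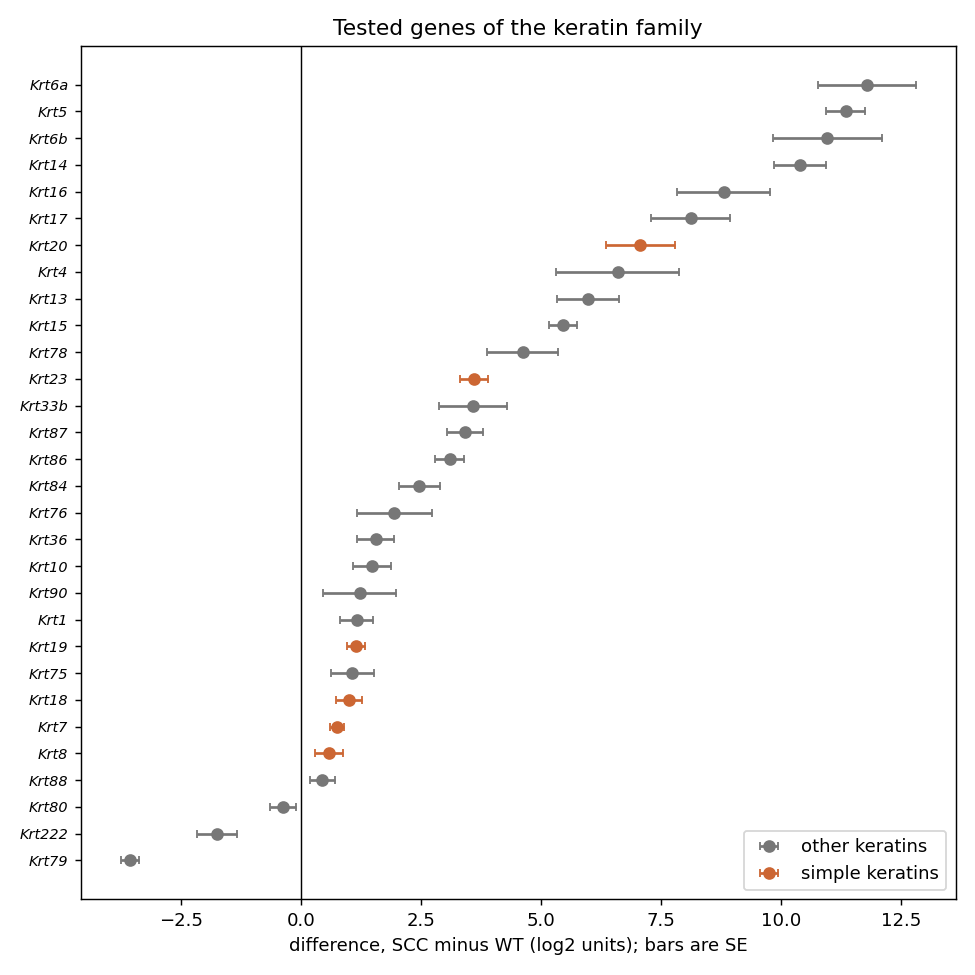
Difference between SCC and WT (log2 units, SE as bars) for the 24 other keratins tested (grey) and the 6 simple keratins (orange), in order of size. Krt6a, Krt6b and Krt36 were not well above background on any WT array, Krt4, Krt20, Krt76 and Krt86 on only 1, Krt87 and Krt90 on 2, Krt10 on 3, and Krt222 on only 1 SCC array, so the size of these fitted differences depends on how dim signal is treated. Krt20 and Krt23 lie at 7.07 and 3.61, and the other simple keratins between 0.59 and 1.15.

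The next list held mostly genes of proteins that bind keratin filaments or tie them to junctions. It also held Krtcap2 (-0.05) and Krtcap3 (0.69), which are named as keratinocyte-associated proteins, and neither was called. Of 12 tested, 7 were called higher and none lower, where 9.92% and 13.0% of all tested probes were, and the median difference was 1.49 against -0.09 over all tested probes. Evpl, which encodes the cornified envelope linker envoplakin, rose by 3.47 (SE 0.66, limma adjusted p 0.00195), and Trim29, a keratin-associated protein of squamous cells, rose by 3.95 (SE 0.63, 0.000679). Desmoplakin (Dsp), which anchors keratin to desmosomes, rose by 3.07, whereas the cytolinker Plec differed by 0.54 and passed the p without reaching 2-fold. For 9 of the 12 genes the lowest tumour value was that of SCC replicate 2.

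Of 28 tested genes of epithelial adhesion and identity, 17 were called higher and none lower, against 9.92% and 13.0% of all tested probes, with a median difference of 1.41. The tight junction gene Cldn4 rose by 4.91 (SE 0.65, limma adjusted p 0.000244) and Cdh3, which encodes P-cadherin, by 4.39 (SE 0.45, 5.27e-05). Not every junction gene followed. The catenin genes that bind E-cadherin differed by -0.58 (Ctnna1), 0.18 (Ctnnb1) and -0.09 (Ctnnd1), and Tjp1 by -0.77, with Ctnna1 and Tjp1 passing the adjusted p below 2-fold.

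Repressors of Cdh1 and the mesenchymal genes Cdh2 and Vim were read beside Cdh1. Of 6 tested, none was called higher and 2 were called lower (13.0% of all tested probes), and all 6 were lower at an adjusted p below 0.05 (26.6% of all tested probes), with a median of -0.81. Zeb1, a repressor of Cdh1 that binds E-boxes, fell by 2.24 (SE 0.19, limma adjusted p 2.14e-05). Cdh2, which encodes N-cadherin, fell by 2.35 (SE 0.51, 0.00391), with 3 of 5 SCC arrays well above background, so it could be tested only through WT. In the same comparison 8 of 9 endothelial markers were called lower (median -2.37). Fibroblast markers were mixed, with 3 of 7 called lower and 2, the collagen genes Col1a1 (0.66, adjusted p 0.00581) and Col3a1 (0.53, 0.0062), higher short of 2-fold. The part of these cells in the values was not tested.

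**Figure D5:**
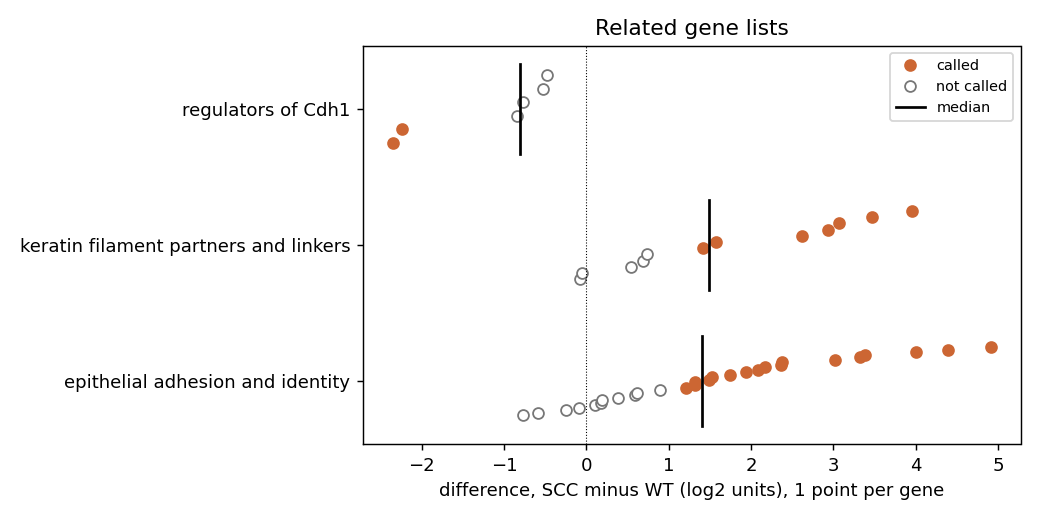
Difference between SCC and WT (log2 units) for each tested gene of 3 related lists, with filled points for called genes, open points for the rest and a bar at the list's median. The medians were 1.49 for keratin partners, 1.41 for adhesion and identity genes and -0.81 for regulators of Cdh1.

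Markers of other cells that make simple keratins were read against the 13.0% of all tested probes called lower. Of 5 tested mesothelial markers, 4 were called lower, with a summed signal of 15.95 to 27.4 in WT and 6.22 to 7.70 in SCC. Upk3b and Wt1, 2 of these 4, were well above background on 3 and 1 SCC arrays and could be tested only through WT. Alveolar type 1 markers were called lower in 7 of 8 cases, club cell markers in 3 of 7 and ciliated cell markers in 4 of 9. Alveolar type 2 markers were called lower in 1 of 9 cases, and 6 of 9 were lower at an adjusted p below 0.05, where 26.6% of all tested probes were. Krt7, Krt8, Krt18 and Krt19 thus had higher means in SCC while the median differences were -1.79 for alveolar type 1, -0.88 for club, -1.05 for ciliated and -0.74 for alveolar type 2 markers. Endothelial markers, which belong to cells without keratins, were called lower in 8 of 9 cases. The part of these shifts in the keratin values was not tested.

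Beside the Krt20 result, 11 markers of gastrointestinal epithelium were read. Of these, 5 were tested and 2 were called higher, the trefoil factor genes Tff1 (7.22, SE 1.73, limma adjusted p 0.00682) and Tff2 (limma adjusted p 0.000231), where 9.92% of all tested probes were. Tff2 was well above background on only 2 WT arrays and could be tested only through SCC. The summed signal of the list was 1.27 to 1.79 in WT, 517 on SCC replicate 2 and 3.29 to 129.7 on the other SCC arrays. The intestinal transcription factor genes Cdx1 and Cdx2 were well above background on SCC replicate 5 alone, the array on which 90.2% of probes were, and the intestinal cadherin gene Cdh17 on 2 arrays of each group. Tff1 was at 9.13, 17.89, 8.83, 9.77 and 15.96 on SCC arrays 1 to 5, highest on replicates 2 and 5, whereas Krt20 was highest on replicates 4, 1 and 2. Neuroendocrine markers were called lower in 2 of 6 cases, fibroblast markers in 3 of 7, against 13.0% of all tested probes, and neutrophil markers were called higher in 3 of 6, against 9.92%.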

How the data were processed

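RNA from 5 WT lungs and 5 SCC had been hybridised to Agilent single-colour arrays, with groups and replicate numbers taken from sample titles. Per the labels, the authors extracted spot values with Agilent Feature Extraction 12. Linear processed intensity, background already subtracted, was taken from the deposited scanner output. The log2 matrix that the authors deposited beside it tracked these signals after quantile normalization (r at least 0.9999 on each array). It served to choose each gene's probe and as an alternative. The number of arrays limits the precision.

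Outlier spots and control spots were left out, spots of a probe averaged, and log2 intensity quantile-normalized. A probe counted as well above background where at least 0.5 of its spots were flagged so, and tested probes (30374 of 41174) met this on 4 or more arrays in either group of 5. Symbols came through RefSeq accessions (28223 probes, 68.5%). SCC was compared with WT by limma 3.58.1 (R 4.3.3), on all 10 arrays without covariates, in place of the methods' one-way analysis of variance, and the fit was tested on simulated data. For Krt6a the fold sets the SCC mean against a floor taken per WT array. The floor was the dimmest signal still well above background or the Krt6a signal, whichever was higher. It is not a detection limit, so the fold is no strict lower bound. Promoters and coordinates came from RefSeq tables (GRCm38.p6), another build than the arrays' design. The methods call replicates biological, and the labels name no animal per sample.

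The members and gene lists were chosen with earlier results of these data known. From each list, the text names up to 2 called genes of largest difference in each direction, and the 3 nearest profiles of each keratin. Tff1 and Tff2 came from the marker lists by the same rule. Plec, Dsp, Ctnna1, Ctnnb1, Ctnnd1, Tjp1, Col1a1, Col3a1, Dsg3, Pkp1, Upk3b, Wt1, Cdx1, Cdx2 and Cdh17 were named after their values were seen. Alternatives were the scaling, background correction, deposited matrix, dim-probe filter, replicate block, slide, the methods' analysis of variance (a t-test for 2 groups, adjusted, and unadjusted at 0.05 and 0.01), call rule, probe, content marker and omitted arrays. Those for Krt8 minus Krt18, and the Krt6a fold without SCC replicate 2, were chosen after seeing the data. Normexp (offset 50) used the median spot and background signals, and mean signals were not used here.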

Additional observations from a re-analysis of the deposited data

Results flagged for a closer look

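In 5 of 24 groups of 5 arrays examined (the 10 probes, the content measure and Krt8 minus Krt18, each in WT and in SCC), the gap between the most extreme array and its neighbour exceeded 0.71 of the group's range, Dixon's limit. For a single group chance gives about 1 in 20. The groups share arrays and values, since the content measure includes Epcam, so the count cannot be set against that rate. All 5 gaps set SCC replicate 2 apart. It was high for Krt8 (gap 0.713 of the range, at 16.39), Epcam (0.755, at 13.73) and the mean of Epcam and Cdh1 (0.782, at 14.28). It was low for Krt23 (0.843, at 15.13) and for the second Krt7 probe (0.782, at 13.51).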

How the results depend on the processing

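With normexp, 4044 probes were called in place of 6954. Slide as a fixed block gave 2988 probes, 3 members and 11 other keratins in place of 19. Without a fold requirement 14878 probes were called. Scaling to the 75th percentile called 6584 probes, 3504 higher and 3080 lower against 3014 and 3940, moved the median of all tested probes from -0.090 to 0.032 and gave Krt8 0.72 (adjusted p 0.0312). Probes bright on all 10 arrays gave 11 other keratins and 1 keratin relative to content, since Krt20 was then not tested. Slide as a fixed block gave Krt7 0.65 (0.181), Krt18 1.14 (0.159), Krt19 0.89 (0.134) and Cdh1 0.71 (0.0506). Within slide 2, where the lone WT array is assumed to vary like the SCC arrays, limma called 0 probes, 0 members, 0 other keratins and 0 keratins relative to content, with 5835, 4, 12 and 2 at an unadjusted p below 0.05. The differences there were 0.65 for Krt7, 1.14 for Krt18, 0.89 for Krt19, 6.52 for Krt20, 3.71 for Krt23, 1.65 for Epcam and 0.71 for Cdh1. By construction they equal those with slide as a fixed block. With Cdh1 alone as content, Krt18 (0.23) and Krt19 (0.38) reversed.

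Leaving out single arrays gave 6385 to 8135 probes, 4 to 5 members, 19 to 21 other keratins and 2 keratins relative to content, with Krt8 at 0.31 to 0.71, Krt18 at 0.77 to 1.16, Krt7 at 0.69 to 0.88, Krt19 at 1.06 to 1.23, Krt20 at 6.71 to 7.71, Krt23 at 3.51 to 3.90, Epcam at 1.57 to 1.81 and Cdh1 at 0.72 to 0.81. Same-numbered samples did not deviate together (correlations -0.099 to 0.0093), so the numbers do not pair them. With the replicate block, 6571 probes, 5 members and 18 other keratins were called. The methods' analysis of variance, which is a t-test for these 2 groups, called 6525 probes after Benjamini-Hochberg adjustment and 5867 at an unadjusted p below 0.01, both with the 2-fold limit. At the methods' general threshold, an unadjusted p below 0.05, and with no fold limit, 16752 probes passed. Krt8 minus Krt18 kept its sign and its side of the threshold under the 13 alternatives run. These were omitted arrays, normexp and the second Krt8 probe, and slide was not among them.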
